A study of Mus with 15 samples.

Results

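The 10 genes described here, out of 21887 protein-coding mouse genes, are writers and erasers of ubiquitin on histone H2A, with Maged1 and its partner Usp7 among them. They were chosen by name for their role, with earlier results of these data known. The peaks that overlapped each gene body plus 5 kb on each side (its window, mm10 coordinates) were taken as its mark. The question was whether the machinery that places and removes the mark carries the mark itself in the thalamus. H2A mono-ubiquitinated in its C-terminal tail (H2AK119ub, termed H2Aub) was profiled by ChIPmentation, chromatin immunoprecipitation in which the transposase Tn5 inserts the sequencing adapters on the beads. Each sample pooled 3 to 4 thalami per the labels, and the files are 11 lists of peaks, 1 per library.

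All mice were 2 to 4 months old and received 3 days of saline injections, then 5 days of cocaine (20 mg/kg, intraperitoneal) or of saline. The control mice, called WT here as in the sample titles, have the genotype label Maged1 Loxp, a floxed gene. In the conditional knockout, labelled Maged1cKO and called cKO here, Cre was driven by the promoter of vGluT2, so deletion was limited to cells that use this promoter and other cells of the tissue kept the gene. Cocaine was represented by 3 WT and 2 cKO libraries, and saline by 3 libraries of each genotype. A peak list holds no expression values, so neither the tissue nor the loss of Maged1 could be checked against marker genes here. In bulk tissue, a weaker mark in every cell and the mark in fewer cells cannot be told apart.

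H2Aub is written by Polycomb repressive complex 1 (PRC1), whose ligase is Ring1 or Rnf2 paired with a PCGF protein such as Bmi1. Variant forms of the complex contain Rybp, and Kdm2b brings such a form to unmethylated CpG islands. The mark is removed by deubiquitinases, among them Usp16 and the complex of Bap1 with Asxl1, and it is found over silent developmental genes such as the Hox clusters.

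The lists differed in length for reasons that the files do not give, since they hold no read counts. The study states a lower bound for the reads of a sample, and the depth of each library is not given in the sources used here. The cKO cocaine and cKO saline replicates numbered 1 stood apart, with 54653 and 80713 peaks against 7271 to 26055 in the other 9 lists, and with median peak widths of 206 and 198 bp against 242 to 429 bp. They had a peak in the window of 50.4% and 58.9% of the protein-coding genes, against 12.6 to 27.8% in the other 9 lists. The counts that rest on them are therefore also given without them. Known Polycomb targets carried the mark throughout, since Hoxa9, Hoxb9, Hoxc9, Hoxd9, Gata4 and Pax9 had a peak in all 11 lists with mean covered lengths of 10496 to 27506 bp. These genes were chosen with earlier results of these data known.

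The 10 genes fell into 3 classes. Bmi1 had a peak in 11 of 11 lists, and Rybp and Kdm2b had a peak in 10 of 11. Usp7 had a peak in 3 lists, Ring1, Rnf2 and Asxl1 in 2 each and Usp16 in 1. Bap1 and Maged1 had none. Thus 3 of the 10 genes had a peak in at least 10 lists, which 9.91% of the protein-coding genes reached, and 2 had no peak, as did 33.9% of the protein-coding genes. A peak in all lists, as at Bmi1, was found at 6.76% of the protein-coding genes. Counted from the other end, 8 of the 10 genes had a peak in at least 1 list (66.1% of the protein-coding genes), 7 in at least 2 (51.1%) and 3 in at least 6 (21.2%). The counts of the first class depended on the peaks kept and on the window. With q at most 0.01, Bmi1 had a peak in 10 lists, Rybp in 6 and Kdm2b in 3, and within the gene body alone Bmi1 had a peak in 7 lists and Rybp in 2. At the gene ends alone (5 kb outside to 2 kb inside) Kdm2b had a peak in 1 list. The ligase subunits Ring1 and Rnf2 were not in the first class, which held a PCGF partner, a variant subunit and a recruiter.

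**Figure D1:**
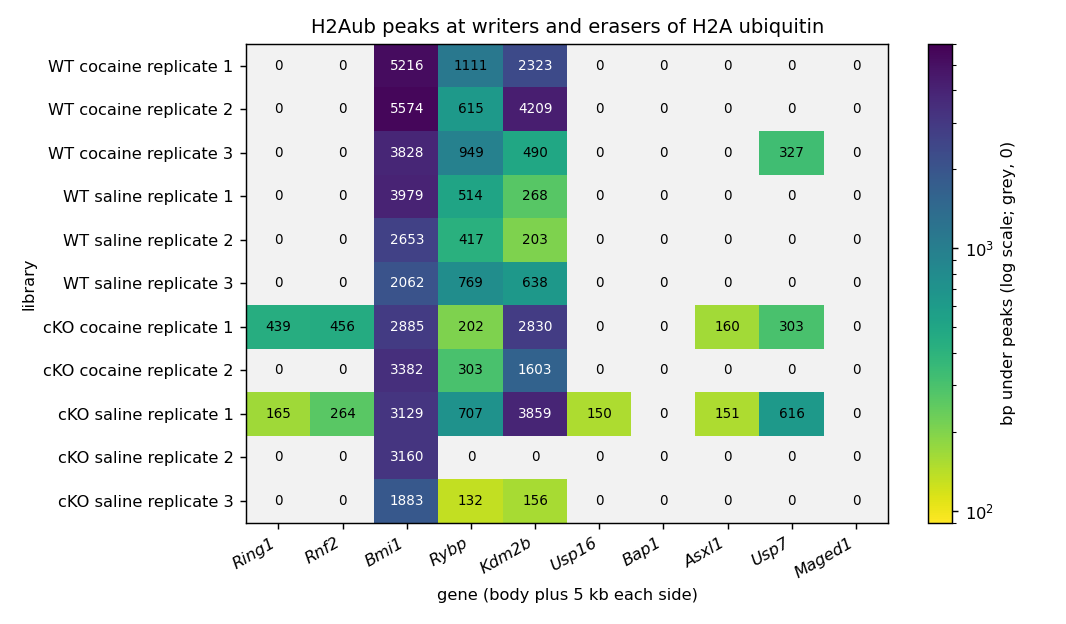
Length under H2Aub peaks, in bp, in the window of each of the 10 genes (columns) in each of the 11 libraries (rows), with colour on a log scale and grey for 0. Bmi1 is covered in every library, Rybp and Kdm2b in all but cKO saline replicate 2, and most other filled cells lie in the rows of the cKO replicates numbered 1.

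Of the 5 genes between these classes, 4 had peaks only in the cKO replicates numbered 1. Ring1, Rnf2 and Asxl1 had a peak in both of these lists and in none of the other 9, which held for 13% of the protein-coding genes, and Usp16 had a peak in cKO saline replicate 1 alone. Peaks in at least 1 of these lists and in none of the other 9 were found at 4 of the 10 genes and at 26.3% of the protein-coding genes. Without these lists, 4 of the 10 genes had any peak, against 39.8% of the protein-coding genes, and 3 had a peak in at least 8 of the 9 lists, against 9.96%. The study called a region H2Aub+ where at least 2 replicates of a group shared it. With a peak in the window in at least 2 replicates as the rule, the same 3 genes (Bmi1, Rybp and Kdm2b) were H2Aub+ in each of the 4 groups, against 22.8% (WT) and 20.7% (cKO) of the protein-coding genes after cocaine and 17.8% (WT) and 18.7% (cKO) after saline. Without both cKO replicates numbered 1, Bmi1 alone met this rule in cKO saline, as 1 of 10 genes, against 9.0% of the protein-coding genes. The same count of 1 was reached by the omission of cKO saline replicate 1 alone, where the share of all genes was again 9.0%, or of cKO saline replicate 3 alone, where it was 15.3%.

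Among the writers, Bmi1, a PCGF protein of canonical PRC1, had the widest mark. The gene lies at chr2:18677018-18686629, and the mean length under peaks was 3432 bp, or 17.5% of its window, which ranked 612 of 21887 protein-coding genes. Most of this length lay beside the gene and not in it. Of the covered length summed over all lists, 88.3% was in the 5 kb above the upper-coordinate end of the gene and 10.6% in the gene body, which held a peak in 7 lists. The gene table gives no strand, so the start of transcription could not be told from the other end.

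The flanking mark formed a site at chr2:18686827-18693540 of 6714 bp, 198 bp above the gene end, when touching peaks of all lists were merged. It held a peak in all 11 lists, and the 243 bp at chr2:18690829-18691071 lay under a peak in every list. This site overlaps Gm46725, a predicted protein-coding gene 873 bp from Bmi1, whose own body was covered by 1156 to 3230 bp in the 11 lists. On the other side Commd3, 787 bp from Bmi1, had no peak in its body in any list. A second site inside Bmi1, at chr2:18680033-18681607, held peaks of 6 lists, with at most 3 lists at the same base. The strongest peak of each list at Bmi1 had a fold enrichment over input of 3.88 to 8.73 and a −log10 q of 1.69 to 11.4, with both highest values in cKO saline replicate 1.

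Rybp, a subunit of variant PRC1, had a small mark just outside the gene (chr6:100228565-100287358). Its mean covered length was 520 bp, and 91.4% of it lay above the upper-coordinate end. The main site, chr6:100288177-100289674, began 819 bp from that end and held peaks of 8 lists, which were all lists except cKO saline replicate 2 and the cKO replicates numbered 1. At most 5 lists covered the same base of it. In cKO cocaine replicate 1 the only peak lay 2.41 kb from the gene, and in cKO saline replicate 1 a 560 bp peak crossed the gene end. The strongest peak of each list at Rybp had a fold enrichment of 3.45 to 4.17, where the median over all peaks of a list was 3.10 to 4.02.

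Kdm2b, a CpG island binding demethylase of variant PRC1, was marked only inside the gene body (chr5:122870664-122989270). Its mean covered length was 1507 bp over a gene of 118.6 kb, and long genes had peaks more often than short ones. Among protein-coding genes over 100 kb, 19.1% had a peak in at least 10 lists, against 7.92% of genes of up to 10 kb, the class that holds Bmi1. The 2 most shared sites were chr5:122951198-122953768 with peaks of 8 lists, which overlaps the long noncoding RNA gene Gm33118, and chr5:122898943-122901129 with peaks of 7 lists.

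The strongest Kdm2b peaks were of another kind. At chr5:122981866-122982495 only the cKO replicates numbered 1 had a peak, with fold enrichments of 7.89 to 10.1 and a −log10 q of 9.67 to 15.2. At chr5:122972444-122972758 the same pair of lists again had the only peaks (fold 6.05 to 7.14). The part of the different make-up of these lists in these values was not tested. At the site of 8 lists the fold enrichments were 2.84 to 3.68.

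**Figure D2:**
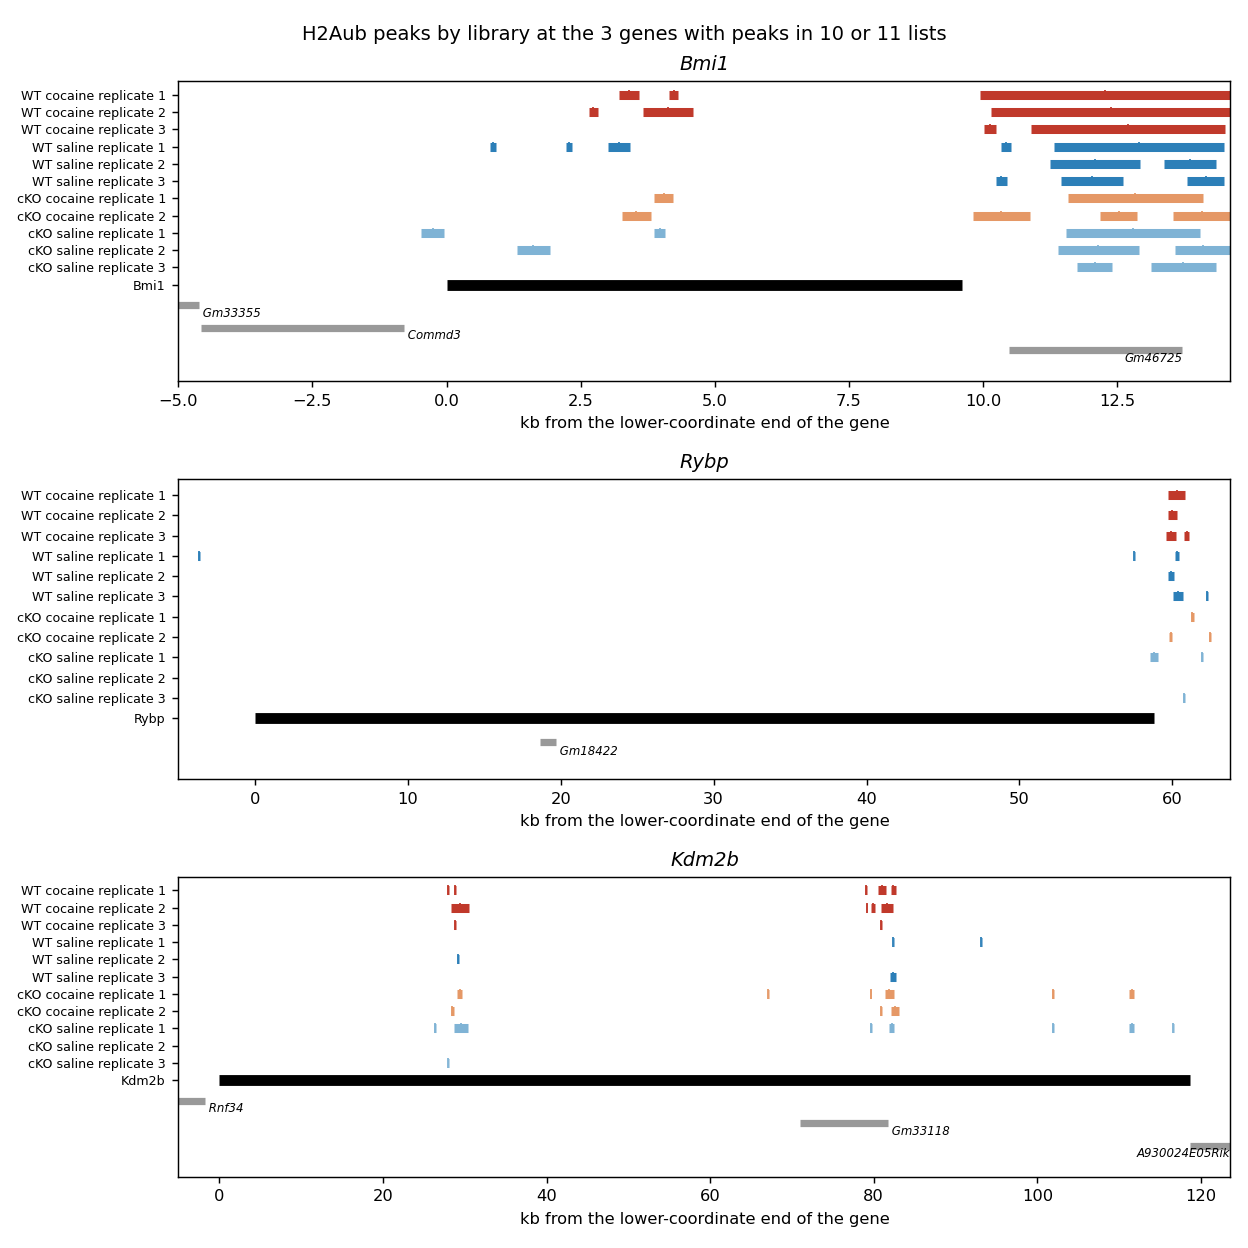
Peaks of each library along the windows of Bmi1, Rybp and Kdm2b, in kb from the lower-coordinate end of the gene, with peaks cut at the window edge. Black bars are the genes, grey bars neighbouring genes, and thin vertical ticks mark the middle of each peak so that narrow ones can be seen. The Bmi1 and Rybp peaks lie mainly above the upper end of the gene, and those of Kdm2b inside it.

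Ring1 and Rnf2, the alternative catalytic subunits of PRC1, had peaks in the cKO replicates numbered 1 alone. At Ring1 (chr17:34020792-34024680) these covered 439 bp in cKO cocaine replicate 1 and 165 bp in cKO saline replicate 1, and both lists had a peak in a 288 bp site 1.51 kb inside the lower end of the gene. At Rnf2 (chr1:151469398-151500991) they covered 456 and 264 bp, and the shared site of 327 bp was 570 bp inside the upper end. No other list had a peak within 15.0 kb of Ring1 or within 59.7 kb of Rnf2. For Rnf2 the nearest peak lay 68.4 to 70.0 kb away, at the same merged site, in 6 of the 9 other lists.

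Among the erasers, Usp16, a deubiquitinase of H2A, had 1 peak of 150 bp, in cKO saline replicate 1 (fold 4.13, −log10 q 2.70). The gene lies at chr16:87454985-87483515, and in the other 10 lists its nearest peak was 17.7 to 2290 kb away. Bap1, the catalytic subunit of the Polycomb deubiquitinase, had no peak in its window (gene at chr14:31251352-31259930), and its nearest peaks were 9.62 to 177 kb away. Asxl1, the partner that Bap1 needs for activity, had a peak of 160 bp in cKO cocaine replicate 1 and of 151 bp in cKO saline replicate 1. Both fell in a 207 bp site 521 bp inside the lower end of the gene (chr2:153345830-153404007). In 8 of the other 9 lists the nearest peak to Asxl1 was inside or just beyond Nol4l, which starts 3.45 kb from Asxl1 and had a peak in its body in 9 lists.

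Usp7, a deubiquitinase that the study ties to Maged1, had peaks inside its body (chr16:8688722-8757067) in 3 lists. They covered 327 bp in WT cocaine replicate 3, 303 bp in cKO cocaine replicate 1 and 616 bp in cKO saline replicate 1. The WT peak had a −log10 q of 1.15 and did not reach q 0.05, and it overlapped a peak of cKO cocaine replicate 1 within the merged site chr16:8737412-8737884. In the other 8 lists the nearest peak was 7.27 to 18.3 kb from the gene.

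Maged1, the gene deleted in the cKO mice, had no peak in its window in any list (gene at chrX:94535474-94542025). The closest peak of any list was 7.96 kb away, in cKO cocaine replicate 1, and in the 9 lists other than the cKO replicates numbered 1 the nearest peak was at least 77.7 kb away. Peaks were sparse on this chromosome, where 71.4% of the 966 protein-coding genes had no peak in any list against 31.3% on the autosomes, and the median over its genes of the median distance to a peak was 1769 kb against 58.6 kb. A missing peak is a missing call, in a library whose depth is not given, and not a measured absence of the mark.

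**Figure D3:**
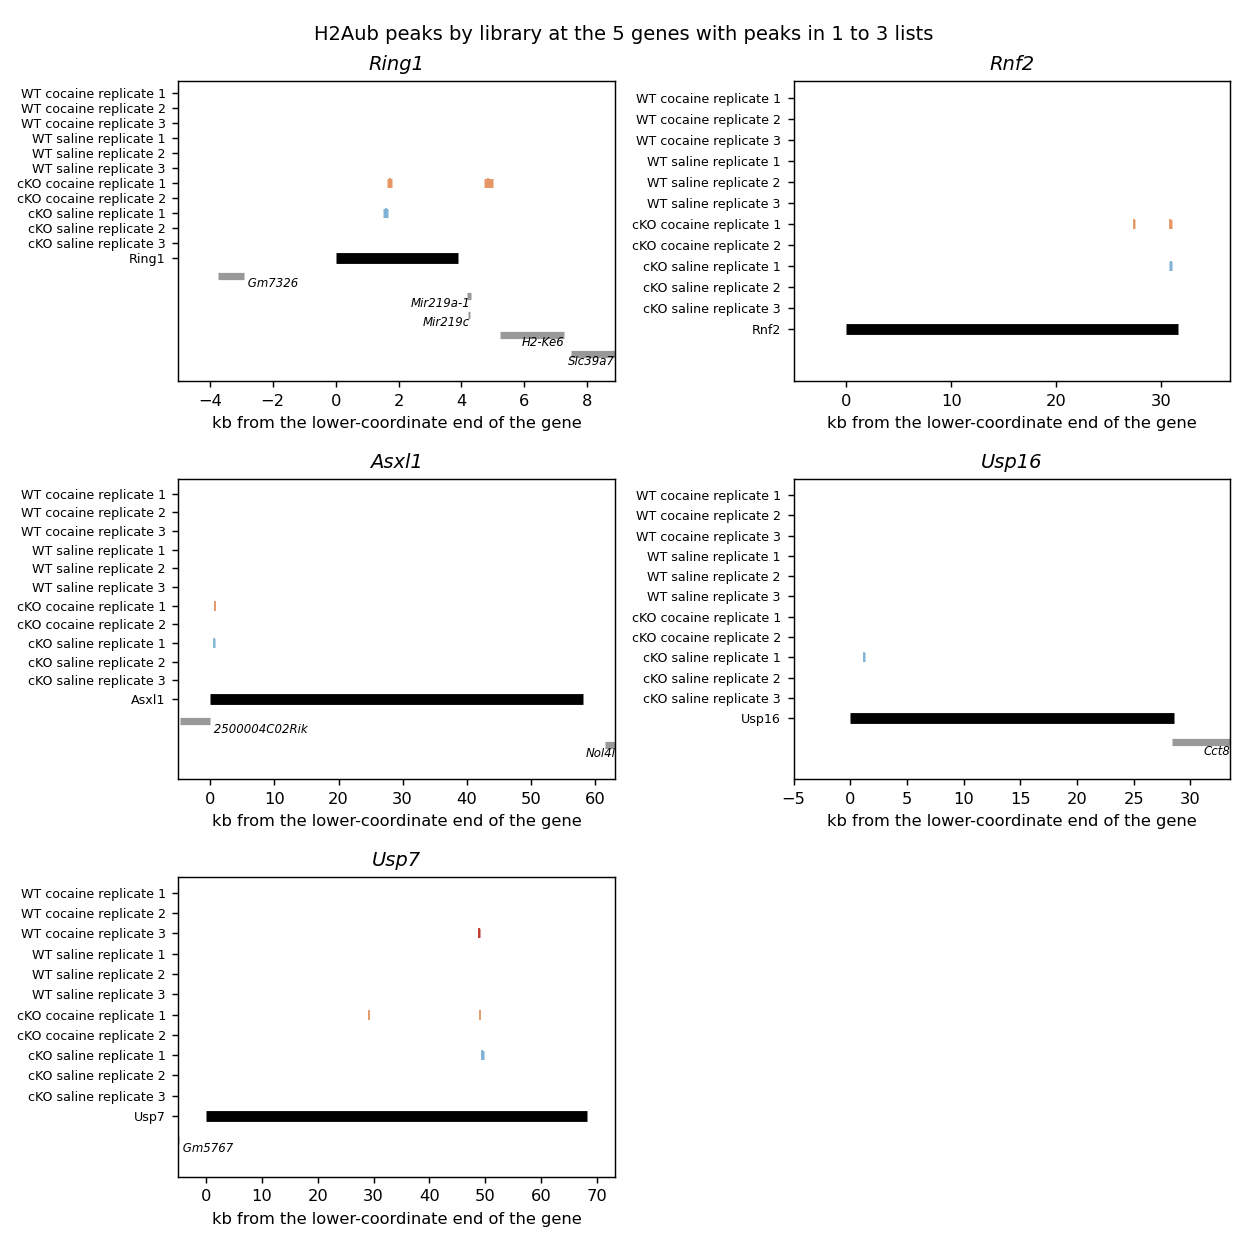
Peaks of each library along the windows of Ring1, Rnf2, Asxl1, Usp16 and Usp7, drawn as in the map of Bmi1, Rybp and Kdm2b, in kb from the lower-coordinate end of each gene. All peaks but 1, in WT cocaine replicate 3 at Usp7, belong to the cKO replicates numbered 1.

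**Figure D4:**
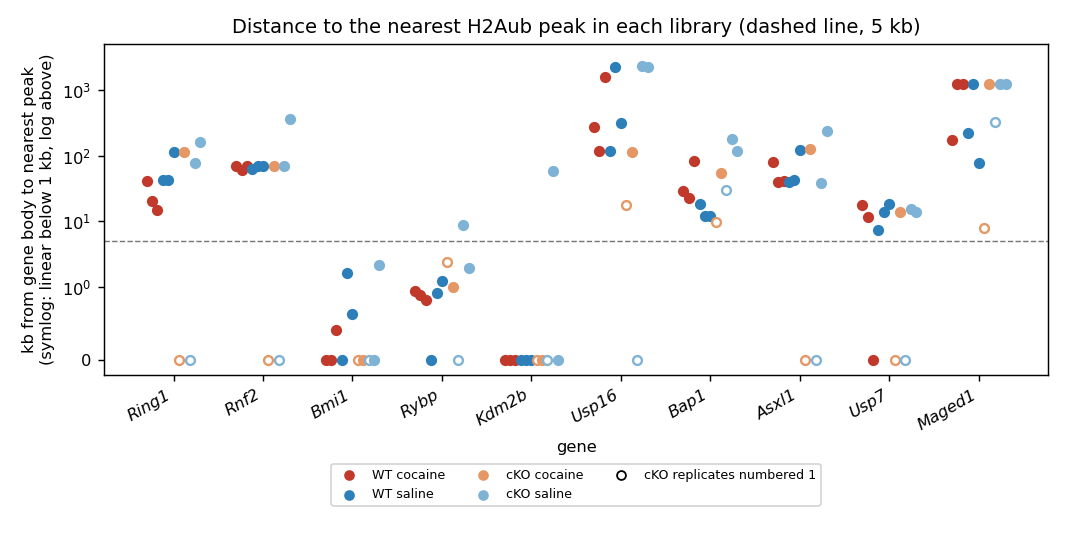
Distance in kb from each gene body to the nearest H2Aub peak in each of the 11 libraries, on an axis that is linear below 1 kb and logarithmic above. Open symbols are the cKO replicates numbered 1 and the dashed line is the 5 kb edge of the window. Bmi1 stays below the line in every library, while Maged1 stays above it in every library.

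The next question was whether the mark at these genes differed with cocaine. Differences of mean covered length were tested for every protein-coding gene with a peak in the libraries compared, by exact permutation tests of the group labels (two-sided), whose smallest possible p is 0.10. No gene could therefore pass 0.05. Each p is the share of label arrangements with a difference of means at least as large, and it does not scale that difference to the spread. Where an SE is printed beside a difference, it gives the spread. The tests called 0 of 8200, 14139, 13344 and 11926 genes in the 4 pairs of groups, with or without adjustment. Differences are given for Bmi1, Rybp and Kdm2b, since at the other 5 genes with a peak a value other than 0 rested on at most 1 library of a group.

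In WT mice all 3 genes had more covered length after cocaine, by less than the replicates could separate. At Bmi1 the peaks covered 5216, 5574 and 3828 bp in WT cocaine, and 3979, 2653 and 2062 bp in WT saline. The ranges overlapped, because the lowest cocaine library lay below the highest saline library. The means were 4873 ± 922 and 2898 ± 982 bp (SD, n = 3), a difference of 1975 ± 778 bp (SE, exact permutation p = 0.20, adjusted p = 0.79). At Rybp the peaks covered 1111, 615 and 949 bp in WT cocaine and 514, 417 and 769 bp in WT saline. The ranges again overlapped. The means were 892 ± 253 and 567 ± 182 bp (SD, n = 3), a difference of 325 ± 180 bp (SE, exact permutation p = 0.20, adjusted p = 0.79).

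Kdm2b differed most in ratio. Its peaks covered 2323, 4209 and 490 bp in WT cocaine and 268, 203 and 638 bp in WT saline. The third cocaine library lay among the saline libraries, so the groups overlapped. The means were 2341 ± 1860 and 369.7 ± 235 bp (SD, n = 3), a ratio of 6.33 and a difference of 1971 ± 1082 bp (SE, exact permutation p = 0.20, adjusted p = 0.79). The difference was 1037 bp without WT cocaine replicate 2 and 2896 bp without WT cocaine replicate 3, the ends of its range over the omission of each library in turn. At Rybp it was 215 bp without WT cocaine replicate 1. None of the 3 genes thus had all WT cocaine libraries above all WT saline libraries, which 15.5% of the genes tested did, while 0.293% had them all below. The direction was that of most genes. Covered length was higher in WT cocaine at 77.0% of the 8200 genes tested, with a median difference of 174.5 bp.

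This difference depended on the scale and on the peaks kept. Scaled to the total length under peaks of each list, the difference at Bmi1 turned to −163 bp and that at Rybp to −67.3 bp, while that at Kdm2b was 1377 bp (exact permutation p of 1.0, 0.80 and 0.20). Within the gene body that at Rybp turned to −32.3 bp and that at Bmi1 fell to 339 bp (exact permutation p = 0.70 at Bmi1). On the scaled lengths none of the 3 genes was without overlap, and all WT cocaine libraries lay above all WT saline libraries at 7.55% and below them at 2.48% of the genes tested. Across the 9 lists without the cKO replicates numbered 1, covered length at Bmi1 followed the total length of the list, with a Pearson r of 0.92 (0.66 for Rybp and 0.78 for Kdm2b), a description over libraries that share their groups. Over all 11 lists the r was 0.34 for Bmi1, 0.32 for Rybp and 0.84 for Kdm2b. With peaks of q at most 0.05, Bmi1 and Kdm2b had no overlap between the WT groups (exact permutation p = 0.10, the smallest possible), with differences of 1979 and 1011 bp. All WT cocaine libraries then lay above all WT saline libraries at 15.9% of the genes tested. With q at most 0.01, the Kdm2b difference was 42.7 bp (exact permutation p = 1.0), and Bmi1 and Rybp were separated upwards, as were 12.1% of the genes tested. With equal numbers of peaks per list, the Kdm2b difference was 576 bp (exact permutation p = 0.30), and Bmi1 alone was separated upwards, as were 11.7% of the genes tested. The omission of WT cocaine replicate 3 or of WT saline replicate 3 also left 2 of the 10 genes without overlap, where 31.7% and 18.8% of the genes tested were separated upwards. The omission of WT cocaine replicate 2 or of WT saline replicate 1 left 1, where 20.7% and 30.1% of the genes tested were.

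In cKO mice the values overlapped throughout. At Bmi1 the peaks covered 2885 and 3382 bp in cKO cocaine and 3129, 3160 and 1883 bp in cKO saline, a difference of 410 ± 489 bp (SE, n = 2 and 3, exact permutation p = 0.80). It turned to −11 bp without cKO saline replicate 3 and with the replicate block, to −57.7 bp with equal numbers of peaks and to −1298 bp with scaled lengths. At Rybp they covered 202 and 303 bp against 707, 0 and 132 bp, a difference of −27.2 ± 223 bp (SE, exact permutation p = 1.0), which turned to 186.5 bp without cKO saline replicate 1 and to 23.3 bp without cKO cocaine replicate 1, and was 16.8 to 349.7 bp with 4 of the other settings. At Kdm2b they covered 2830 and 1603 bp against 3859, 0 and 156 bp, a difference of 878 ± 1402 bp (SE, exact permutation p = 0.60), which was 209 bp without cKO saline replicate 2 and 2139 bp without cKO saline replicate 1, and turned to −104 bp with q at most 0.01 and −37.7 bp at the gene ends. The highest cKO saline value at Rybp and at Kdm2b was that of replicate 1, which stood apart. Without both replicates numbered 1, which leaves a lone cKO cocaine library and a smallest possible p of 0.33, that library lay above both saline libraries at all 3 genes, by 861 bp at Bmi1, 237 bp at Rybp and 1525 bp at Kdm2b over the saline mean. In that setting 67.2% of the genes tested were separated in this direction. With all libraries, 3.9% of the genes tested had both cKO cocaine libraries above all cKO saline libraries and 0.0778% had them below.

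**Figure D5:**
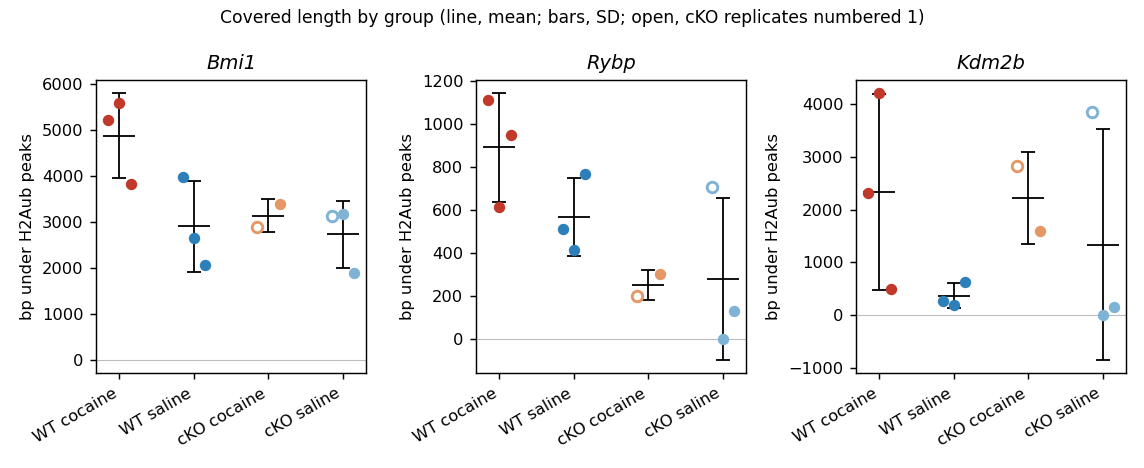
Length under H2Aub peaks, in bp, at Bmi1, Rybp and Kdm2b in each library by group, with the group mean (line) and SD (bars) of its 2 (cKO cocaine) or 3 (other groups) libraries. Open symbols are the cKO replicates numbered 1. At Bmi1 and Rybp both cKO cocaine libraries lie below the 3 WT cocaine libraries, while cocaine and saline overlap within each genotype at all 3 genes.

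Genotype was compared within each treatment. Under saline the covered length at Bmi1 differed by −174 ± 706 bp between cKO and WT, at Rybp by −287 ± 241 bp and at Kdm2b by 969 ± 1268 bp (SE, n = 3 per group, exact permutation p of 0.90, 0.30 and 1.0). All 3 ranges overlapped, and 0.54% of the genes tested had all cKO saline libraries above and 0.607% all below those of WT saline. At Bmi1 the difference turned to 366.5 bp without WT saline replicate 1, to 246.5 bp without cKO saline replicate 3 and to 60.3 bp within the gene body, where that at Rybp turned to 57 bp. Without cKO saline replicate 1, all remaining cKO values lay below the WT values at Rybp and at Kdm2b, with differences of −501 and −292 bp. In that setting 10.1% of the genes tested were separated downwards and 1.21% upwards. Rybp was also separated downwards with scaled lengths, as were 2.07% of the genes tested (0.922% upwards), and with equal numbers of peaks, as were 5.13% (0.987% upwards).

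Under cocaine both cKO libraries lay below all 3 WT libraries at Bmi1 and at Rybp. The difference was −1739 ± 588 bp at Bmi1 and −639 ± 155 bp at Rybp (SE, n = 2 and 3, exact permutation p = 0.20, adjusted p = 0.68 for each). At Kdm2b the groups overlapped, with a difference of −124 ± 1237 bp (SE, exact permutation p = 0.90). It turned to 968 bp with q at most 0.05, 825 bp with q at most 0.01, 376.5 bp with equal numbers of peaks, 810.0 bp without WT cocaine replicate 2 and 489 bp without cKO cocaine replicate 2. Of the 11926 genes tested, 3.25% had both cKO cocaine libraries below all WT cocaine libraries and 6.6% had them above, and 74.0% had a higher mean in cKO cocaine. Without cKO cocaine replicate 1, the lone cKO library lay below all WT cocaine libraries at 23.3% and above them at 15.5% of the genes tested. The direction at Bmi1 and Rybp was the same without cKO cocaine replicate 1 (−1491 and −589 bp), with scaled lengths (−1607 and −598 bp) and with equal numbers of peaks per list (−2686 and −828 bp), but the number of genes without overlap and the background changed with the setting. With equal numbers of peaks both genes were separated downwards, as were 11.5% of the genes tested, while 2.57% were separated upwards. With scaled lengths Rybp alone was separated downwards (4.93% of the genes tested, and 7.22% upwards), and with flanks of 10 kb Bmi1 alone (2.89%, and 7.11% upwards). Within the gene bodies neither was (3.47%, and 6.37% upwards), and the differences were −101 bp at Bmi1 and 0 bp at Rybp. Without cKO cocaine replicate 2 the number without overlap was 5, since Ring1, Rnf2 and Asxl1 then rested on the remaining library. That library lay above all WT cocaine libraries at 68.4% of the genes tested and below them at 6.07%.

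The cocaine effect was then compared between genotypes by permuting treatment within genotype, over 200 arrangements. The effect in cKO minus that in WT was −1565 bp at Bmi1, −352 bp at Rybp and −1093 bp at Kdm2b, with exact permutation p of 0.225, 0.31 and 0.595 and adjusted p of 1.0. None of these tests passed 0.05. Without cKO saline replicate 1 the value was −138.5 bp at Rybp and 167.5 bp at Kdm2b. With all libraries the value at Kdm2b turned to 101 bp with q at most 0.05 and to 182 bp with equal numbers of peaks, that at Rybp turned to 61.3 bp with scaled lengths, and that at Bmi1 was −161 bp within the gene body. Over all 14474 genes tested, 46 (0.318%) had an unadjusted p of at most 0.05 and none passed after adjustment.

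The wider pathway also held both marked and unmarked genes. Of 16 other PRC1 subunits and partners, 13 had a peak in at least 1 list, 8 in at least 1 of the lists other than the cKO replicates numbered 1, and 4 in at least 9 of all 11 lists. Of the protein-coding genes, 66.1% had a peak in any list, 39.8% in at least 1 of the other 9 and 12.8% in at least 9. These were Pcgf1, the PCGF protein of the Kdm2b complex (11 lists, mean covered length 1199 bp), Pcgf2, the paralog of Bmi1 (10 lists, 1204 bp), Bcor, a corepressor of the same variant complex (10 lists, 3305 bp), and Auts2, a neuronal PRC1 partner with a very long gene (11 lists, 7496 bp). The median distance from the gene body to the nearest peak was 2.93 kb at Pcgf1, so in most lists its peaks lay only beside the gene. It was 0 kb at Pcgf2, Bcor and Auts2. Bcor is on the X chromosome, where 0.725% of the protein-coding genes had a peak in at least 10 lists. Of 16 other H2A deubiquitinases and partners, 12 had a peak in any list, 4 in the lists other than the cKO replicates numbered 1, and only Usp44 in at least 9 (11 lists, 2921 bp), against the same shares of 66.1%, 39.8% and 12.8%. Both lists had a median of 2 lists per gene, as did all protein-coding genes.

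Of 8 genes for ubiquitin and its E1 and E2 enzymes, 4 had a peak in any list (66.1% of the protein-coding genes) and none in 9 or more (12.8%). Of 13 PRC2 subunits and readers of the mark, 8 had a peak in any list, 3 in the lists other than the cKO replicates numbered 1, and 1 in at least 9, against 66.1%, 39.8% and 12.8%. This was Jarid2, a PRC2 cofactor that binds H2Aub (9 lists, 1174 bp). Of 4 other MAGE genes, 1 had a peak in any list, against 66.1%. It was Magel2 (4 lists), named after its values were seen.

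No gene of these lists could pass the exact test, so they are described by overlap, together with the 6 known Polycomb targets (63 genes in all). Between the WT groups, 3 of the 22 listed genes tested had all cocaine libraries above all saline libraries, against 15.5% of all genes tested. They were Pcgf1 (1473 to 3767 bp against 319 to 1050 bp), Pcgf2 (1696 to 2131 bp against 445 to 1136 bp) and Phf19 (1268 to 2378 bp against 0 to 665 bp). In cKO mice 3 of the 43 listed genes tested were separated in this direction, against 3.9% of all genes tested. They were Pcgf1 (1121 to 1517 bp against 470 to 745 bp), Usp44 (3546 to 3623 bp against 434 to 2858 bp) and Usp22 (394 to 476 bp against 0 to 325 bp). At Usp22 the median distance from the gene body to the nearest peak was 4.68 kb, so in most lists the gene body held no peak. Between genotypes under cocaine, 1 of the 37 listed genes tested was separated upwards (6.6% of all genes tested) and 1 downwards (3.25%). Jarid2 was higher in cKO (1901 to 3006 bp against 115 to 1530 bp) and Hoxc9 lower (15413 to 15414 bp against 15705 to 17413 bp). Between the saline groups, 0 of the 43 listed genes tested were separated, against 0.54% upwards and 0.607% downwards of all genes tested.

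The genes on other chromosomes whose covered length was most like that of Bmi1 over the 11 libraries were Pax2 (Pearson r = 0.96), Lrrc38 (0.93) and Coch (0.93). For Kdm2b they were Mfsd2b (0.97), Krt82 (0.97) and Tram2 (0.97), and for Rybp they were C1ql1 (0.92), Slc35f2 (0.87) and Rabif (0.87). These genes share the libraries and their list lengths with the 3 genes. An r above 0.8 was held by 0.708% of the genes with Bmi1, 3.95% with Kdm2b and 0.0959% with Rybp.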

How the data were processed

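H2Aub was measured in 11 libraries, grouped by the genotype and treatment labels, and 4 total input libraries were not analysed here. Per the methods and the labels, the authors trimmed adapters with Cutadapt, mapped reads to mm10 with Bowtie2 (2.3.4.1) and, with total input as control, ran MACS2 (2.1.1.20160309.3) in broad mode on each library. The deposited lists give each peak's start and end, a score, the fold enrichment over input (a linear ratio) and the −log10 p and −log10 q. Replicates were not pooled. The highest q of a list was 0.0976 to 0.0997, above the false discovery rate of 0.05 that the study states for its calls, and all peaks were used. The lists hold no read counts. The study states a lower bound for the reads of a sample but, in the sources used here, no depth for each library, so no interval that needs it is given.

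Peaks were joined by position to genes of the GRCm38.p6 assembly, which shares the mm10 coordinates, with symbols as in that table, which gives no strand. All 10 genes, and all genes of the other lists, were found, Skp1a as Skp1. The covered length is the number of bp of a window (gene body plus 5 kb each side) under at least 1 peak, and any overlap of 1 bp counted as a peak. Exact permutation tests (two-sided) compared the group means, with Benjamini-Hochberg adjustment over all protein-coding genes with a peak in the libraries compared. The scripts, in Python 3.11.15 with numpy 2.4.6 and pandas 2.3.3, were tested on simulated data. Nothing in the labels says more of the replicates than that they are independent biological samples, and no sequencing batch is given. The paper states that its experiments were repeated on distinct batches, but not which libraries shared a batch. No 2 lists shared more than 18 identical peaks. Named genes were the 10 genes, genes of the other pathway lists with peaks in at least 9 lists or without overlap between groups, neighbours within a window, and the 3 genes most alike to each of the 3 most covered genes. Magel2 was named outside this rule. The 10 genes and the lists were chosen with earlier results of these data known. Alternatives were stricter q, equal numbers of peaks, other windows and overlaps, scaled lengths, omitted libraries and a replicate block. The place of the nearest peak to Maged1 in some lists is not reported here.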

Additional observations from a re-analysis of the deposited data

How the results depend on the processing

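In the tests of 2 groups, which could not reach 0.05, none of the 10 genes passed an adjusted p of 0.05 under the alternatives for which it was computed, which were all but the peak midpoint. For the difference of cocaine effects no adjusted p was computed under the alternatives, and the unadjusted exact permutation p at Bmi1, Rybp and Kdm2b was at least 0.085. Values below are covered bp of the first group minus the second, or numbers of the 10 genes. With q at most 0.05, Kdm2b turned to 968 bp between cKO and WT under cocaine and to 101 bp in the difference of cocaine effects, and 2 genes lost their overlap between the WT groups (15.9% of all genes tested were separated upwards). With q at most 0.01, peaks remained in 6 lists at Rybp, 3 at Kdm2b and 1 at Asxl1, 1 gene was H2Aub+ in each group other than WT cocaine (7.25% of the protein-coding genes in cKO cocaine, 6.57% in cKO saline and 6.04% in WT saline), 2 genes lost their WT overlap (12.1% upwards), Rybp and Kdm2b turned to 52 and −104 bp in cKO mice, and Kdm2b to 825 bp between genotypes under cocaine. With the 7271 lowest-q peaks of each list, Ring1, Rnf2, Usp16, Asxl1 and Usp7 had a peak in 0 lists, 1 gene was H2Aub+ in cKO cocaine (4.56%), 1 gene lost its overlap between the WT groups (11.7% upwards) and 1 between the saline groups (5.13% downwards), Bmi1 and Rybp turned to −57.7 and 20 bp in cKO mice, and Kdm2b to 376.5 bp between genotypes under cocaine and 182 bp in the difference of effects. Within gene bodies, Bmi1 had a peak in 7 lists and Rybp in 2, 1 gene was H2Aub+ in WT saline (14.4%), 0 were without overlap between genotypes under cocaine (3.47% downwards), Rybp turned to −32.3 bp in WT, and Bmi1 and Rybp to 60.3 and 57 bp between genotypes under saline. With flanks of 10 kb, Bap1 and Maged1 had a peak in 1 list each, Rybp turned to 349.7 bp in cKO mice and 1 gene was without overlap between genotypes under cocaine (2.89% downwards). At gene ends alone, Kdm2b had a peak in 1 list and Usp7 in 0, 1 gene lost its WT overlap (15.0% upwards) and Kdm2b turned to −37.7 bp in cKO mice. With at least 200 bp covered, Ring1 counted in 1 list and Usp16 and Asxl1 in 0, 1 gene was H2Aub+ in cKO saline (14.9%) and Rybp turned to 16.8 bp in cKO mice. With scaled lengths, Bmi1 turned to −163 bp and Rybp to −67.3 bp in WT, Bmi1 to −1298 bp in cKO mice and Rybp to 61.3 bp in the difference of effects, and 1 gene was without overlap between genotypes under saline (2.07% downwards) and 1 under cocaine (4.93% downwards). The cause of these changes was not tested.

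Without both cKO replicates numbered 1, Ring1, Rnf2, Usp16 and Asxl1 had a peak in 0 lists and Usp7 in 1, 1 gene was H2Aub+ in cKO saline (9.0%), 3 genes lost their overlap between the cKO groups (67.2% upwards) and 2 between the saline groups (10.1% downwards), Rybp turned to 237 bp in cKO mice and Kdm2b to −292 bp between genotypes under saline. With a peak in at least 1 replicate, 7 genes were H2Aub+ in cKO mice given cocaine (51.8%) and 8 in those given saline (59.5%), and with a peak in all replicates 1 in the latter (8.94%). Over the omission of each library in turn, Ring1, Rnf2 and Asxl1 had a peak in 1 to 2 lists and Usp16 in 0 to 1, and the number of H2Aub+ genes was 1 to 3 in cKO saline, and that of genes without overlap was 0 to 2 between the WT groups, 0 to 3 between the cKO groups, 0 to 2 between the saline groups and 2 to 5 between the cocaine groups. Between the cKO groups these were 1 gene without cKO cocaine replicate 1 (8.34% upwards), 3 without cKO cocaine replicate 2 (33.1%) and 2 without cKO saline replicate 1 (28.5%). Over the same omissions the difference between the WT groups was 1557 to 2515 bp at Bmi1, 215 to 463 bp at Rybp and 1037 to 2896 bp at Kdm2b, and that between the cKO groups −11 to 658, −167 to 186.5 and 209 to 2139 bp. That between genotypes was −592 to 366.5, −501 to −147 and −292 to 1638 bp under saline, and −2262 to −1389, −778 to −529.5 and −1049.5 to 810.0 bp under cocaine. The difference of effects was −2106 to −1147, −492 to −138.5 and −2018 to 167.5 bp. Over the settings that kept all libraries without a block, the WT difference was −163 to 2979 bp at Bmi1, −67.3 to 832 bp at Rybp and 0 to 1971 bp at Kdm2b, and the cKO difference −1298 to 1207, −89.3 to 349.7 and −104 to 1112 bp. The difference between genotypes was −916 to 60.3, −659 to 57 and 37.7 to 1141 bp under saline, and −2686 to −101, −882 to 0 and −190 to 968 bp under cocaine, and that of effects −1883 to −161, −743 to 61.3 and −1192 to 182 bp. With a lone library left in cKO cocaine, its spread is unknown and the smallest p is larger.

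Whether equal replicate numbers pair samples was checked by the correlation of deviations from group means over 14474 genes. It was 0.0705, −0.00499 and 0.0308 for the WT pairs, within the −0.157 to 0.135 of WT samples with unequal numbers. The check thus showed no pairing by number in WT mice, but it cannot exclude pairing. In cKO mice, with 2 cocaine libraries whose deviations mirror each other, the check is void. With the replicate block, the WT differences were the same (exact sign-flip p of 0.25, the smallest possible, at Bmi1 and Rybp and 0.50 at Kdm2b), and Bmi1 turned to −11 bp in cKO mice. What depth limits could not be measured, as the lists hold no read counts and the depth of each library is not given.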
